A study of Mus musculus with 12 samples.

Results

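The comparison set 6 arrays of fundic mucosa with gastrin present against 6 with gastrin absent, which are all 12 of the 12 arrays in the series. The gastrin-present side held gastrin knockout mice infused with gastrin for 1 week (3 arrays) and wild-type mice (3 arrays). The gastrin-absent side held gastrin knockout mice infused with saline for 1 week (3 arrays) and double knockout mice without gastrin or cholecystokinin, CCK (3 arrays). Arrays were put on each side by their labels, and each side holds 1 infused and 1 uninfused group, so that infusion was balanced between the sides. The features were all 22626 probe sets that are not array controls, each pooling the short probes aimed at a transcript into an intensity in arbitrary units.

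The double knockout lacks CCK as well as gastrin, so within the uninfused pair the loss of gastrin and of CCK cannot be told apart. The 2 infused groups share the gastrin knockout and the infusion. No infusion is recorded for the wild-type and double knockout mice. An age, 2 months, and the male sex were given only for the saline-infused knockouts. Each wild-type sample came from about 2 to 4 mice per the labels. Whether replicate samples are separate animals is not recorded, so a p-value here reflects the sample-to-sample spread only, part of which could be technical.

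Gastrin is a peptide hormone made by G cells of the gastric antrum and released after a meal. It acts through the CCK2 receptor, encoded by Cckbr, on enterochromaffin-like cells, which answer by releasing histamine, and on parietal cells, which secrete acid. Histamine in turn stimulates the parietal cell, and gastrin is also known as a growth factor for the enterochromaffin-like cell and the fundic mucosa.

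The genes of the enterochromaffin-like cell that rose together are shown by the 250 bases before their start, from RefSeq on build GRCm38.p6, 5′ to 3′ on the strand of the gene. Capitals mark matches, on either strand, to the cyclic AMP response element TGACGTCA (CRE) or the GC box GGGCGG, motifs that do not overlap in these letters. Hdc lies at chr2:126618679-126618928 on the minus strand, Chga at chr12:102554691-102554940 on the plus strand and Chgb at chr2:132781392-132781641 on the plus strand.
Hdc: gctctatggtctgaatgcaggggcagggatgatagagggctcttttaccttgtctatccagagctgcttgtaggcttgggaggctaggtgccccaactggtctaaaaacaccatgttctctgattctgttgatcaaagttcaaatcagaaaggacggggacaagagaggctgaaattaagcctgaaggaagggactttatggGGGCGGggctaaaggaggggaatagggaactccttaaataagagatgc
Chga: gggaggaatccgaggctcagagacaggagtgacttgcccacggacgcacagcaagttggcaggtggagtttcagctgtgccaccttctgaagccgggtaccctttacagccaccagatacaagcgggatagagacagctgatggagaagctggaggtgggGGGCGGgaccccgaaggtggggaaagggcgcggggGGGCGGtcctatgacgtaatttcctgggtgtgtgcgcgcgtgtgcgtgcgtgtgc
Chgb: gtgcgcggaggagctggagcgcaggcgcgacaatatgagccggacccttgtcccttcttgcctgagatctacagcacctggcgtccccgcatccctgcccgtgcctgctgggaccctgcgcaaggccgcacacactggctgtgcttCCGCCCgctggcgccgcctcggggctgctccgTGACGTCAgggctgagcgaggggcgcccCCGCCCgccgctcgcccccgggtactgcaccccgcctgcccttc
All 3 windows held a GC box and the Chgb window also held the CRE. Among the 15 largest rises named below, 13 had a promoter in the table, and 1 of 13 (Chgb) held the CRE and 7 of 13 the GC box. Among the 15 largest falls, 0 of 15 held the CRE and 7 of 15 the GC box. Of 9883 genes on the array with a promoter, 2.53% held the CRE and 57.0% the GC box. A match describes letters in the window and is not evidence of binding.

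The labelled tissue was checked against its markers before the results. Parietal and chief cell genes were bright, with Atp4a, the catalytic subunit of the gastric proton pump, between 35107 and 68031 on all 12 arrays, and Pgc, the zymogen progastricsin, between 57602 and 106820. Of 10 intestine genes measured, 2 were within the noise on all 12 arrays, the factor Cdx2 among them. Their summed intensity was 35273 to 39011 on gastrin-infused and 30312 to 41982 on wild-type arrays. It was 20289 to 27132 on saline-infused and 26999 to 28598 on double knockout arrays. In gastrin presence Apoa1 rose and Vil1 fell. The 10 pancreas genes measured summed to 64304 to 74952 on double knockout arrays and 96561 to 114615 on the other arrays. Keratins of the forestomach, the squamous part of the stomach, were present at uneven levels. Krt13 read 301, 2822 and 485 on the gastrin-infused, 1453, 666 and 462 on the wild-type, 5391, 1171 and 4370 on the saline-infused and 4929, 547 and 4986 on the double knockout arrays. Smooth muscle Myh11 was 2483 on gastrin-infused array 1 and at most 369 on the other 11. The fat gene Adipoq was 1813 on double knockout array 2 and at most 553 elsewhere.

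The 3 double knockout arrays stood apart at the bright end. The spiked hybridisation control BioC-5 read 5789 to 6892 on gastrin-infused, 4435 to 5619 on wild-type and 5967 to 7472 on saline-infused arrays, and 1784 to 2307 on double knockout arrays. Array medians were alike on all 12 (403 to 421), yet the highest intensity was 65365 to 71514 on the double knockout arrays and 88899 to 113441 on the other 9. The 100 brightest probe sets had a median log2 difference of -0.06 in the infused pair and 0.39 in the uninfused pair, and after quantile normalization -0.02 and 0.00. Quantile-normalized values are given below beside many of the bright genes. The Gapdh 3′ to 5′ ratio, a sign of RNA integrity, was 1.35 ± 0.362 with gastrin present and 1.2 ± 0.127 with gastrin absent (SD, n = 6 each, difference 0.146, two-sided exact permutation test p = 0.446, smallest possible 0.00216). It was highest on wild-type arrays 1 and 2, at 1.51 and 2.00.

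**Figure D1:**
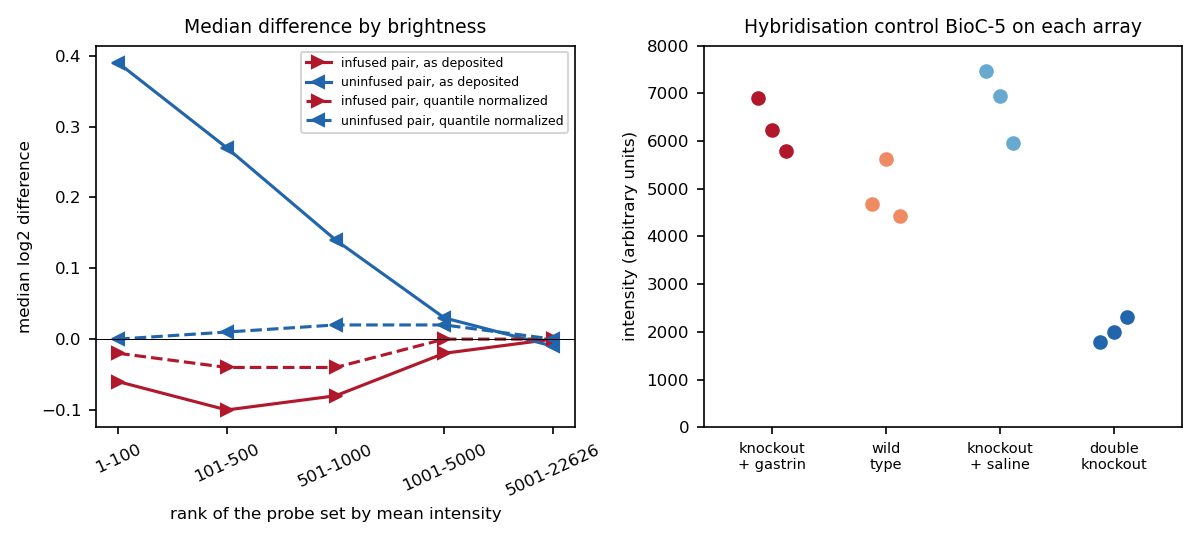
Left, the median log2 difference (y axis) of probe sets grouped by brightness rank (x axis), for the infused pair (gastrin minus saline infusion) and the uninfused pair (wild type minus double knockout), from deposited intensities (solid) and after quantile normalization (dashed). Right, BioC-5 intensity on each of the 12 arrays. The uninfused pair lies at 0.39 for the brightest 100 probe sets as deposited and at 0.00 after quantile normalization, and the double knockout arrays have the lowest BioC-5, 1784 to 2307.

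The deleted gene was read first. Gast, the gene for gastrin itself, read -72, -34 and -43 on gastrin-infused, 596, 318 and 823 on wild-type, 37, -8 and 31 on saline-infused and -64, -35 and -162 on double knockout arrays. It was above the noise only on the 3 wild-type arrays. With the double knockout below background only a bound holds, at least 7.18-fold higher in wild type (limma adjusted p = 0.000547), and the infused pair, within the noise in both groups, has no fold. Its call for gastrin presence (adjusted p = 0.00514) came from the wild-type arrays. Cck read 25, -9 and 115 on gastrin-infused and 17, 98 and 48 on wild-type arrays, against 68, 39 and 70 on saline-infused and 40, 54 and 130 on double knockout arrays. It was within the noise on 9 arrays and did not pass (-0.64 ± 0.60, adjusted p = 0.603). The highest value lay above the noise on double knockout array 3, so this probe set does not check that label.

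Gastrin presence changed 1037 probe sets of 837 genes. Of these, 587 were higher and 450 lower with gastrin present (limma, Benjamini-Hochberg adjusted p under 0.05 over 22626 probe sets), which is 4.58% of all, 2.59% higher and 1.99% lower. The median log2 difference was 0.50 among the rises and -0.51 among the falls, and 90 rises and 50 falls reached 1. All 6 arrays of one side lay above all 6 of the other in 507 probe sets (2.24% of all), 328 higher and 179 lower with gastrin present. The count was 191 without wild-type arrays 1 and 2, whose Gapdh ratio was highest, a setting that leaves wild type with 1 array. The part of the ratio and of the lost replication was not tested. With 1 array left out the count lay between 482 (saline-infused array 1) and 772 (double knockout array 3). It fell by over 1.5 times without gastrin-infused array 1 (680), 2 (493) or 3 (569), wild-type array 1 (604), 2 (568) or 3 (676), saline-infused array 1 (482) or 2 (672), or double knockout array 1 (655). Without all 3 double knockout arrays it was 445.

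The infused and uninfused pairs share no array. The infused pair called 282 probe sets (1.25% of all, 0.773% higher and 0.473% lower) and the uninfused pair 936 (4.14%, 2.12% higher and 2.02% lower). The 3 arrays of one group lay above the 3 of the other in 20.8% of probe sets in the infused and 24.5% in the uninfused pair, with both pairs separated the same way in 945 (4.18%, 2.60% higher and 1.57% lower) and opposite ways in 469 (2.07%). Of the 282, 216 (76.6%) had the same sign in the uninfused pair, and of the 936, 570 (60.9%) had the same sign in the infused pair, against 53.2% of all probe sets. Both pairs called 45 probe sets of 40 genes in the same direction, 38 higher and 7 lower, and 8 in opposite directions. Of the 1037 called for gastrin presence, 980 (94.5%) had the same sign in both pairs and 372 (35.9%) were called in neither pair. Gastrin presence is the mean of the 2 pair differences, so a call favours equal signs. The 94.5% is therefore no independent agreement of the pairs. The change was larger in the infused pair in 290 of the 587 rises and 171 of the 450 falls. Over all probe sets the 2 sets of log2 differences had a Pearson r of 0.157 (across probe sets, which are not independent), and 0.304 over the 11313 brighter ones.

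**Figure D2:**
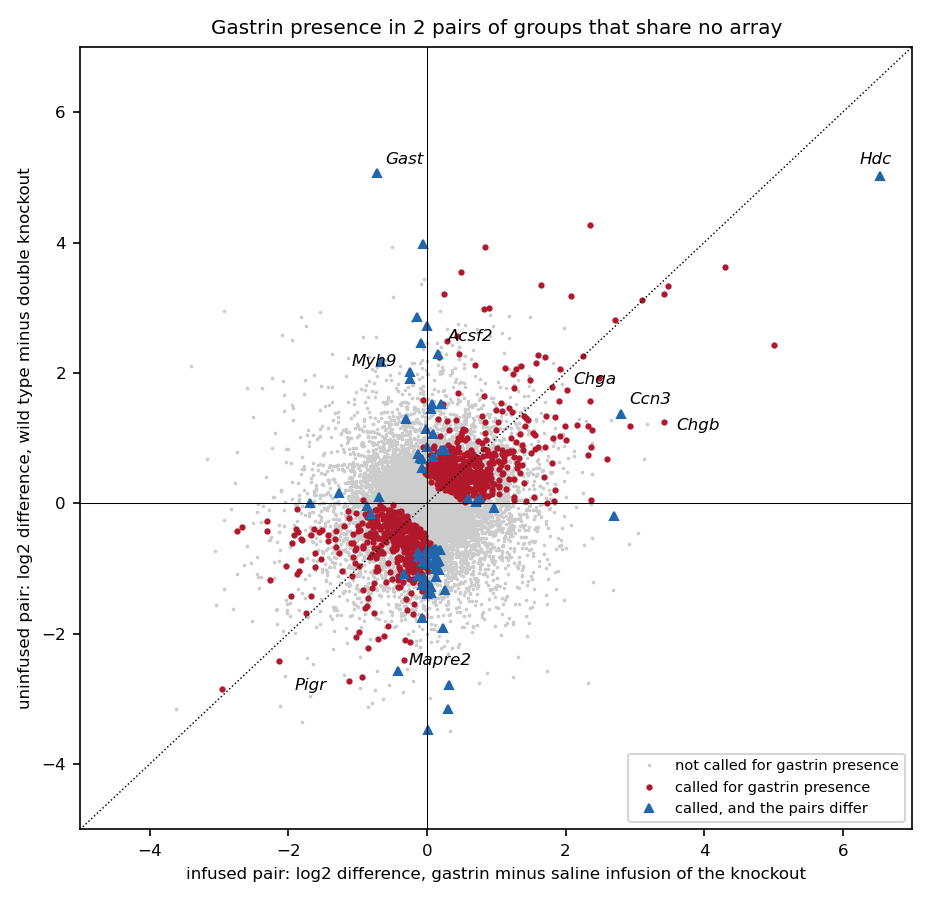
Log2 difference of each probe set in the infused pair (x axis, gastrin minus saline infusion of the knockout) against the uninfused pair (y axis, wild type minus double knockout). Red and blue mark the 1037 probe sets called for gastrin presence, blue those among them whose pairs also differ by test, and the dotted line is equality. Hdc stands far out in both pairs, where its place is set by the floor of 16 and the data allow only at least 16.3-fold and at least 6.92-fold, while Myh9 and Acsf2 lie near 0 in the infused pair and the place of Gast is likewise set by the floor.

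Genes of the enterochromaffin-like cell and its secretory granules included the largest rise, Hdc. Of 14 measured, 5 rose (Hdc, Chga, Chgb, Scg5 and Resp18), 0 fell and 9 did not pass, and the median log2 difference was 0.31, against 0.00 over the brightest probe set of each gene, of which 362 of 12393 rose and 241 fell. In bulk tissue, fewer cells of a type and less RNA per cell cannot be told apart. The summed intensity of the list was 24601 to 31794 on gastrin-infused and 14073 to 20611 on wild-type arrays, against 9390 to 9990 on saline-infused and 9896 to 11257 on double knockout arrays, so the sides did not overlap.

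Hdc encodes histidine decarboxylase, which makes histamine. It read 1390, 1926 and 1225 on gastrin-infused and 490, 686 and 416 on wild-type arrays, against -40, -48 and -90 on saline-infused and -54, -2 and -86 on double knockout arrays. Every gastrin-absent array lay within the noise, so only a bound holds: at least 10.6-fold higher with gastrin present, at least 16.3-fold in the infused pair and at least 6.92-fold in the uninfused pair. Gastrin presence passed (limma adjusted p = 2.4e-07), as it did on a second probe set (3.97 ± 0.60, adjusted p = 0.0126). On the first, all 6 gastrin-absent values were raised to the floor of 16, so its p-value takes in no spread from those arrays. Whether the effect differed between the pairs cannot be read from values at the floor, and on the second probe set that difference did not pass (0.68 ± 1.20, adjusted p = 0.849).

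Chga, the granule protein chromogranin A, read 8765, 13433 and 10235 on gastrin-infused and 6049, 10288 and 7063 on wild-type arrays, against 2041, 2125 and 2098 on saline-infused and 2987, 2499 and 2262 on double knockout arrays. The sides did not overlap, and both pairs passed (2.35 ± 0.21, adjusted p = 0.00531, and 1.57 ± 0.21, adjusted p = 0.00833, limma), with 2.32 and 1.52 after quantile normalization. Chgb, chromogranin B, read 4794, 7011 and 4587 on gastrin-infused and 877, 1927 and 935 on wild-type arrays, against 573, 610 and 364 on saline-infused and 638, 606 and 303 on double knockout arrays. Its infused pair passed (3.41 ± 0.39, adjusted p = 0.0108) and its uninfused pair did not (1.25 ± 0.39, adjusted p = 0.117), and the difference between the pairs did not pass either (2.16 ± 0.55, adjusted p = 0.109). Resp18, a secretory pathway protein of endocrine cells, rose by 1.41 ± 0.24 (adjusted p = 0.0178) and Scg5, a chaperone of a prohormone convertase, by 1.02 ± 0.18 (adjusted p = 0.0186). Members that did not pass included Scg3 at 1.06 (adjusted p = 0.161) and Syp, a vesicle membrane protein, at 0.01 (adjusted p = 0.96).

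Of 10 genes of other endocrine cells, 2 rose and 0 fell, with a median of 0.01, against 362 rises and 241 falls among all 12393 genes. Sst, the somatostatin of D cells, which inhibits acid secretion, read 13649, 13417 and 14138 on gastrin-infused and 16905, 23726 and 15346 on wild-type arrays, against 5681, 8169 and 6216 on saline-infused and 13737, 12221 and 9744 on double knockout arrays. Saline-infused arrays were the lowest, while double knockout array 1 lay within the gastrin-infused range. The difference was 0.85 ± 0.14 (limma adjusted p = 0.0157), or 0.75 after quantile normalization, with the infused pair passing (1.06, adjusted p = 0.0425) and the uninfused pair not (0.64, adjusted p = 0.111). Ghrl, the precursor of the appetite hormone ghrelin, rose by 0.50 ± 0.07 (adjusted p = 0.0112) and by 0.37 ± 0.07 after quantile normalization (adjusted p = 0.0248).

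**Figure D3:**
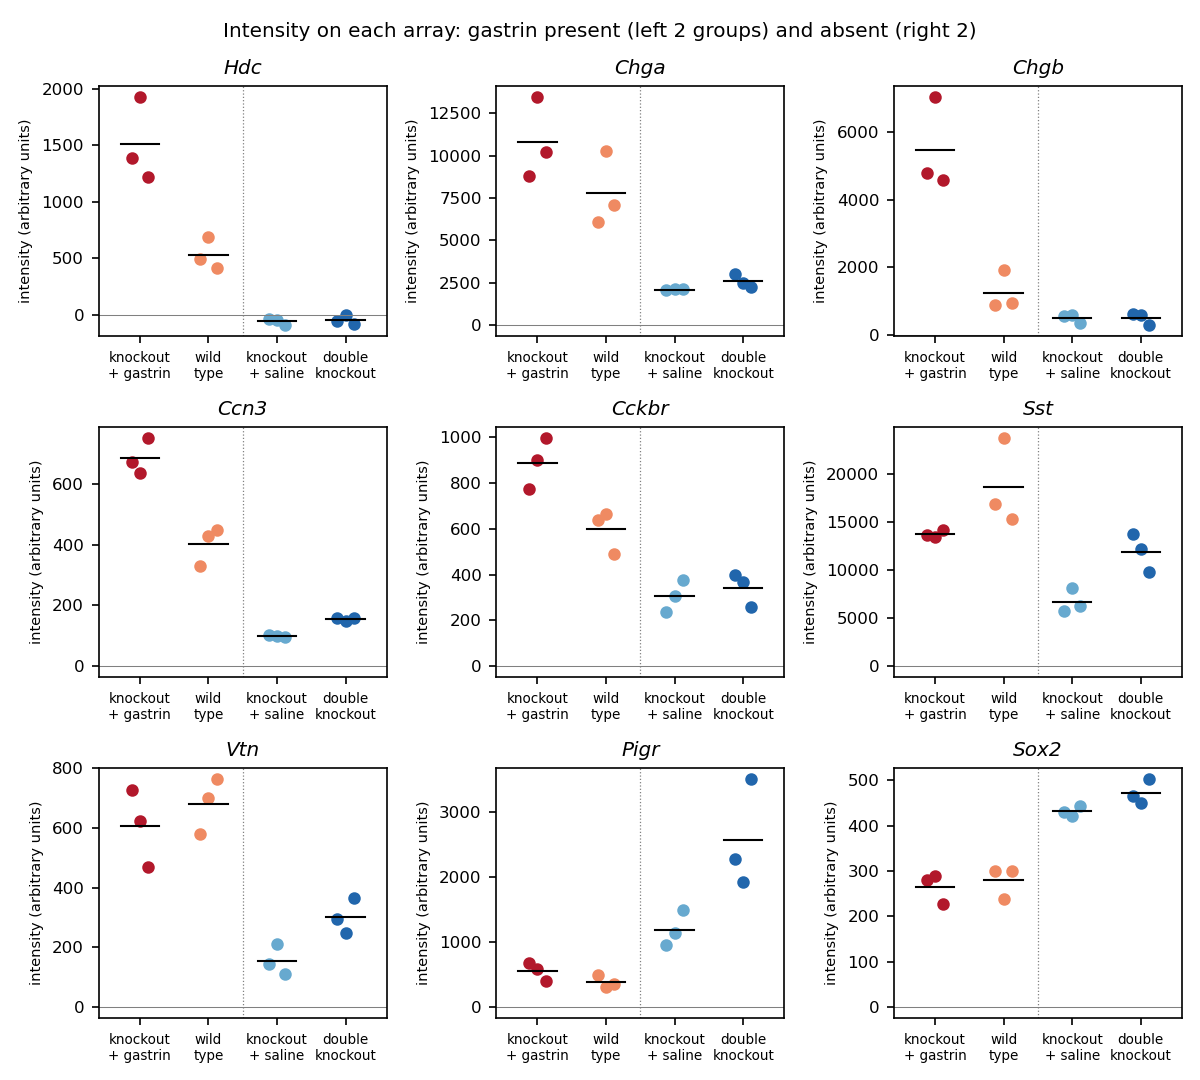
Intensity (y axis, arbitrary units, linear) of 9 genes on each array, with bars at group means, for gastrin-infused knockout, wild type, saline-infused knockout and double knockout. Hdc is near 0 on all 6 gastrin-absent arrays, Chgb is highest in the gastrin-infused group, and Pigr is highest in the double knockout.

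Genes of acid secretion were among the rises. Of 21 genes measured on the parietal list, 8 rose, 0 fell and 13 did not pass, with a median of 0.20 (0.33 in the infused pair and 0.29 in the uninfused pair). After quantile normalization the medians were 0.18, 0.38 in the infused and 0.08 in the uninfused pair. The infused pair called 6 of the 21 and the uninfused pair 3. Among all 12393 genes, by their brightest probe set, gastrin presence called 362 higher and 241 lower. Cckbr, the gastrin receptor, read 773, 901 and 996 on gastrin-infused and 639, 665 and 488 on wild-type arrays, against 237, 304 and 374 on saline-infused and 396, 367 and 257 on double knockout arrays. The sides did not overlap and the difference was 1.19 ± 0.15 (limma adjusted p = 0.00718), although its second probe set did not pass (0.33 ± 0.20, adjusted p = 0.382). Enterochromaffin-like cells also carry this receptor.

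Atp4a read 61110, 56477 and 58502 on gastrin-infused and 56627, 68031 and 58071 on wild-type arrays, against 36260, 44845 and 35107 on saline-infused and 41032, 41586 and 37144 on double knockout arrays. The sides did not overlap, and both pairs differed by 0.61 ± 0.11 (adjusted p = 0.0393 in the infused and 0.0229 in the uninfused pair). After quantile normalization gastrin presence gave 0.42 ± 0.06 (adjusted p = 0.00593), with 0.67 in the infused and 0.18 in the uninfused pair. Atp4b, the pump's other subunit, rose by 0.55 ± 0.06 (0.29 after quantile normalization, adjusted p = 0.0305). The potassium channel subunits of the acid canaliculus rose as well, Kcnq1 by 0.81 ± 0.17 and Kcne2 by 0.68 ± 0.09, with 0.80 and 0.64 after quantile normalization. Slc4a2, the basolateral anion exchanger, rose by 0.57 ± 0.09 (0.51 after quantile normalization) and the water channel Aqp4 by 0.62 ± 0.12 (0.63 after quantile normalization). Of these, the uninfused pair did not pass for Kcnq1 (0.37, adjusted p = 0.439), Kcne2 (0.45, adjusted p = 0.103), Slc4a2 (0.37, adjusted p = 0.153) or Aqp4 (0.31, adjusted p = 0.348), nor for Cckbr (0.82, adjusted p = 0.0723), while the pair difference passed for none (limma adjusted p = 0.237 to 0.333). Cblif, which encodes intrinsic factor, is counted among the 8, but the cell that makes it was not determined here. It rose by 0.47 ± 0.09, and its infused pair did not pass (0.30, limma adjusted p = 0.315). After quantile normalization it was 0.32 with adjusted p = 0.093. Leaving out 1 array ended the call of Kcnq1 in 8, Cblif in 7 and Aqp4 in 2 of 12 cases. The second probe set of Aqp4 did not pass (0.57, limma adjusted p = 0.0858). Hrh2, the histamine receptor, did not pass (0.17, adjusted p = 0.174).

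Several bright genes of zymogen and mucus lost their call under quantile normalization. Of 13 chief cell genes 3 rose and 0 fell, with a median of 0.04, against 362 rises and 241 falls among all 12393 genes. Pgc rose by 0.40 ± 0.05, with 0.08 in the infused and 0.71 in the uninfused pair, but by 0.09 (adjusted p = 0.249) after quantile normalization. Chia1, an acidic chitinase, gave 0.30 as deposited and -0.01 after quantile normalization. Gkn1, a surface mucous cell protein and 1 of 10 genes on that list to pass, gave 0.31 and -0.03. Pnliprp1, a lipase-related protein, rose by 0.65 ± 0.08 (adjusted p = 0.00733), with 0.71 in the infused and 0.58 in the uninfused pair. Muc5ac, the main surface mucin, did not pass (0.26, adjusted p = 0.0834, and 0.05 after quantile normalization). Clps, a colipase gene on the pancreas list, gave 0.32 and 0.00. Array and genotype cannot be told apart in the uninfused pair.

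Ccn3, a matricellular protein, read 672, 637 and 750 on gastrin-infused and 328, 427 and 449 on wild-type arrays, against 101, 99 and 95 on saline-infused and 159, 147 and 157 on double knockout arrays. Its sides did not overlap and both pairs passed (2.80 ± 0.12, adjusted p = 1.16e-05, and 1.37 ± 0.12, adjusted p = 0.00115, limma), the infused pair exceeding the uninfused by 1.43 ± 0.17 (adjusted p = 0.016). Its other probe set rose by 1.74 ± 0.13, with a pair difference that did not pass (0.34, adjusted p = 0.596). Vtn, the adhesive glycoprotein vitronectin, read 729, 624 and 468 on gastrin-infused and 581, 702 and 763 on wild-type arrays, against 144, 210 and 111 on saline-infused and 296, 247 and 364 on double knockout arrays. It rose by 1.59 ± 0.18 (adjusted p = 0.00499), and both of its probe sets passed.

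The serine protease Htra1 rose by 2.25 ± 0.42 (adjusted p = 0.0237), Sparc, a collagen-binding matrix protein, by 1.69 ± 0.31 (adjusted p = 0.0217) and the proteoglycan Bgn by 1.67 ± 0.26 (adjusted p = 0.0143), the last on all 3 of its probe sets. Htra1 read 44, 77 and 229 on saline-infused and 253, 109 and 82 on double knockout arrays. Of these, 3 lay within the noise, so the size of its rise is imprecise. Of 17 stroma and smooth muscle genes, 3 rose (Col1a1, Col4a1 and Sparc), 0 fell and 14 did not pass, while all 17 had a positive difference, with a median of 0.76. Their summed intensity was 24855 to 47953 on gastrin-infused and 24292 to 28006 on wild-type arrays, against 14242 to 25772 on saline-infused and 15132 to 20007 on double knockout arrays. Among all 12393 genes, 362 rose, 241 fell and 6235 had a positive difference. The depth of the scraping was not measured, and its part in these genes was not tested.

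Other named rises were Agt, the angiotensin precursor (2.20 ± 0.35), Cbarp, a regulator of voltage-gated calcium channels (1.49 ± 0.28), and Ppp1r3c, which targets a phosphatase to glycogen (1.23 ± 0.13). Agt read 97, 94 and 139 on saline-infused and 128, 67 and 87 on double knockout arrays, near the noise, so its size is imprecise. For Cbarp 2 arrays lay within the noise and its second probe set was not called. The second probe set of Ppp1r3c did not pass (0.33, limma adjusted p = 0.163). Hamp2, a hepcidin gene, read 11179, 14615 and 8917 on gastrin-infused and 6285, 9330 and 5925 on wild-type arrays, against 3539, 4448 and 3873 on saline-infused and 4069, 3188 and 2804 on double knockout arrays. It rose by 1.31 ± 0.16 (limma adjusted p = 0.00629, and 1.28 after quantile normalization) and passed in both pairs, but its second probe set did not pass (0.04, adjusted p = 0.939). Of 14 iron handling genes 3 rose, the others being Tfrc, the transferrin receptor (0.73, and 0.70 after quantile normalization), and Fth1, the ferritin heavy chain (0.56, and 0.39 after quantile normalization), and the list median was 0.00. Atp5a1, a subunit of ATP synthase, gave 0.25 in the infused and 3.21 in the uninfused pair and Ubxn2a 0.47 and 2.28, with pair differences that did not pass (adjusted p = 0.0673 and 0.0697), and no other probe set of either passed. Of 29 oxidative phosphorylation and citric acid cycle genes 5 rose and 27 had a positive difference, with a median of 0.26, which was 0.17 after quantile normalization (0.28 in the infused and 0.07 in the uninfused pair). Of those 5, Cox5b and Atp5o did not pass after quantile normalization (0.17, adjusted p = 0.0502, and 0.19, adjusted p = 0.114). Beside these and the iron handling counts, 362 of all 12393 genes rose and 6235 had a positive difference.

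Of the 40 genes called the same way in both pairs, the 10 whose smaller pair difference was largest are given here. They were Hdc, Ccn3, Chga, Vtn and Hamp2, and also Gnmt, a glycine methyltransferase (1.37 ± 0.18), Fam83g (1.06 ± 0.13) and 3 dim probe sets. Ppp1r3c and Hmgb2 were among the others called in both pairs. Gnmt read 1323, 1123 and 996 on gastrin-infused and 429, 861 and 640 on wild-type arrays, against 522, 353 and 414 on saline-infused and 298, 242 and 216 on double knockout arrays. Each pair separated, while saline-infused array 1 lay above wild-type array 1. The dim ones, with gastrin-absent values within the noise, were the magnesium transporter Slc41a3 (at least 1.92-fold higher), Pign, an enzyme of membrane anchor synthesis (at least 1.83-fold), and the secreted ligand Wnt9a (at least 1.55-fold). No other probe set of Fam83g, Slc41a3 or Pign was called for gastrin presence, and 1 of the 4 of Pign had the opposite sign.

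Pigr, the receptor that carries secretory antibody across epithelium, had the largest named fall. It read 674, 584 and 396 on gastrin-infused and 490, 304 and 355 on wild-type arrays, against 954, 1134 and 1488 on saline-infused and 2282, 1932 and 3509 on double knockout arrays. The sides did not overlap. It fell by 1.93 ± 0.21 on the log2 scale (limma adjusted p = 0.00429), with -2.73 in the uninfused pair passing and -1.12 in the infused pair not (adjusted p = 0.105), and both probe sets fell. Sox2, a transcription factor of stomach epithelium and its progenitors, read 279, 289 and 228 on gastrin-infused and 300, 239 and 300 on wild-type arrays, against 429, 422 and 444 on saline-infused and 466, 449 and 502 on double knockout arrays. The highest gastrin-present array, at 300, lay below the lowest gastrin-absent one, at 422. The infused pair gave -0.71 ± 0.12 (adjusted p = 0.0316) and the uninfused pair -0.76 ± 0.12 (adjusted p = 0.0131). Of 17 gastric transcription factors, 2 fell (Sox2 and Ehf, -0.66 ± 0.09) and 1 rose (Spdef, 0.28 ± 0.07), with a median of -0.02. Among all 12393 genes, 241 fell and 362 rose.

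Among the named falls, Ddx60 (-1.18 ± 0.26) and Ifih1 (-0.77 ± 0.15), helicases of antiviral RNA sensing, Gbp2b, a guanylate-binding protein (-1.01 ± 0.22), and Irak1, a kinase of Toll-like receptor signalling (-0.84 ± 0.12), passed. Leaving out 1 array in turn ended the call of Ddx60 in 9, Gbp2b in 9 and Ifih1 in 7 of 12 cases (highest limma adjusted p = 0.078, 0.0784 and 0.0615). These cases lay among the gastrin-infused, wild-type and double knockout arrays, and Irak1 lost its call in 0. Without all 3 double knockout arrays Irak1 did lose it, and its infused pair did not pass (-0.50, limma adjusted p = 0.205). Of the 4 probe sets of Irak1 no other was called, and 1 had the opposite sign. Of 18 interferon response genes 4 fell (Rsad2, Irf1, Gbp2 and Ifih1), 0 rose and 14 did not pass, with a median of -0.62 (-1.09 in the infused and -0.20 in the uninfused pair). Rsad2, an antiviral enzyme, read 780, 1129 and 970 on gastrin-infused and 1589, 1791 and 1346 on wild-type arrays, against 9059, 3665 and 3107 on saline-infused and 1588, 2783 and 1533 on double knockout arrays. Saline-infused array 1 was far above the rest, and leaving out 1 array ended the call of Rsad2 in 10 of 12 cases. The summed list was 12183 to 14840 on gastrin-infused and 15197 to 17873 on wild-type arrays, against 21239 to 45332 on saline-infused and 16721 to 23314 on double knockout arrays. Of 13 antigen presentation genes, 2 fell (Psmb8 and Psmb9, subunits of the immunoproteasome) and 0 rose. Beside the interferon and antigen counts, 241 of all 12393 genes fell and 362 rose.

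On the list of cell division 1 gene passed, while 2 of 24 had a positive difference. Of 24 DNA replication and mitosis genes only Anln, a scaffold of cell division, fell (-0.99 ± 0.20, limma adjusted p = 0.0289), 0 rose and 23 did not pass, with a median of -0.46 (-0.66 in the infused and -0.13 in the uninfused pair). Mki67, the proliferation marker, read 696, 813 and 695 on gastrin-infused and 1503, 1652 and 1017 on wild-type arrays, against 1388, 2274 and 1889 on saline-infused and 1611, 2704 and 1077 on double knockout arrays, and did not pass (-0.80 ± 0.23, adjusted p = 0.0891). Gastrin-infused arrays were the lowest, and wild-type arrays overlapped both gastrin-absent groups. Over the brightest probe set of each gene, 241 of 12393 fell. Leaving out 1 array ended the call of Anln in 9 of 12 cases, and after quantile normalization 3 of the 24 list genes passed. Named falls outside the list were E2f8, an atypical E2F factor (-0.99 ± 0.18), Pttg1, the securin (-0.77 ± 0.18), and Hmgb2, a chromatin protein of dividing cells (-0.84 ± 0.10). No other probe set of Pttg1 or Hmgb2 was called.

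Of 19 forestomach genes measured 3 fell (Ly6d, Serpinb5 and S100a14), 0 rose and 16 did not pass, none had a positive difference, and the median was -0.67 (-1.15 in the infused and -0.19 in the uninfused pair). Their summed intensity was 18731 to 42902 on gastrin-infused and 29269 to 48131 on wild-type arrays, against 37977 to 88344 on saline-infused and 21546 to 70933 on double knockout arrays. Among all 12393 genes, 241 fell, 362 rose and 6235 had a positive difference. No defining keratin passed, with Krt13 at -1.83 ± 0.79 (adjusted p = 0.23) and Krt5 at -0.65 ± 0.62 (adjusted p = 0.607). The part of forestomach tissue in the falls was not tested.

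The other named falls were Klk1, a tissue kallikrein (-1.22 ± 0.26), Erbin, an adaptor of the receptor ErbB2 (-0.90 ± 0.08), AW112010 (-0.88 ± 0.15), Tax1bp1, an autophagy adaptor (-0.80 ± 0.07), Taok1, a protein kinase (-0.74 ± 0.12), and Tmem109 (-0.72 ± 0.09). Klk1, Erbin, Tax1bp1 and Taok1 passed in the uninfused pair (-1.68, -1.21, -1.17 and -1.12). In the infused pair they did not (-0.76, -0.59, -0.42 and -0.37, limma adjusted p = 0.051 to 0.359). AW112010 passed in neither pair and Tmem109 in both. Without the double knockout arrays, AW112010, Tax1bp1 and Taok1 lost their call. Klk1 read 698, 765 and 2164 on the double knockout arrays. For Tmem109, 3 of 5 probe sets had the opposite sign, and for Tax1bp1 1 of 3. No other probe set of Klk1, Erbin, Tax1bp1 or Taok1 was called. Of the 30 named rises and falls, 20 kept their call whichever single array was left out. The other 10 were Htra1, Sparc, Cbarp, Atp5a1, Klk1, Ddx60, Gbp2b, E2f8, Ifih1 and Pttg1. Of the 61 called probe sets among list genes, 24 kept it. Without all 3 double knockout arrays 37 of the 61 lost their call, Atp4b among them, and 7 did under quantile normalization.

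**Figure D4:**
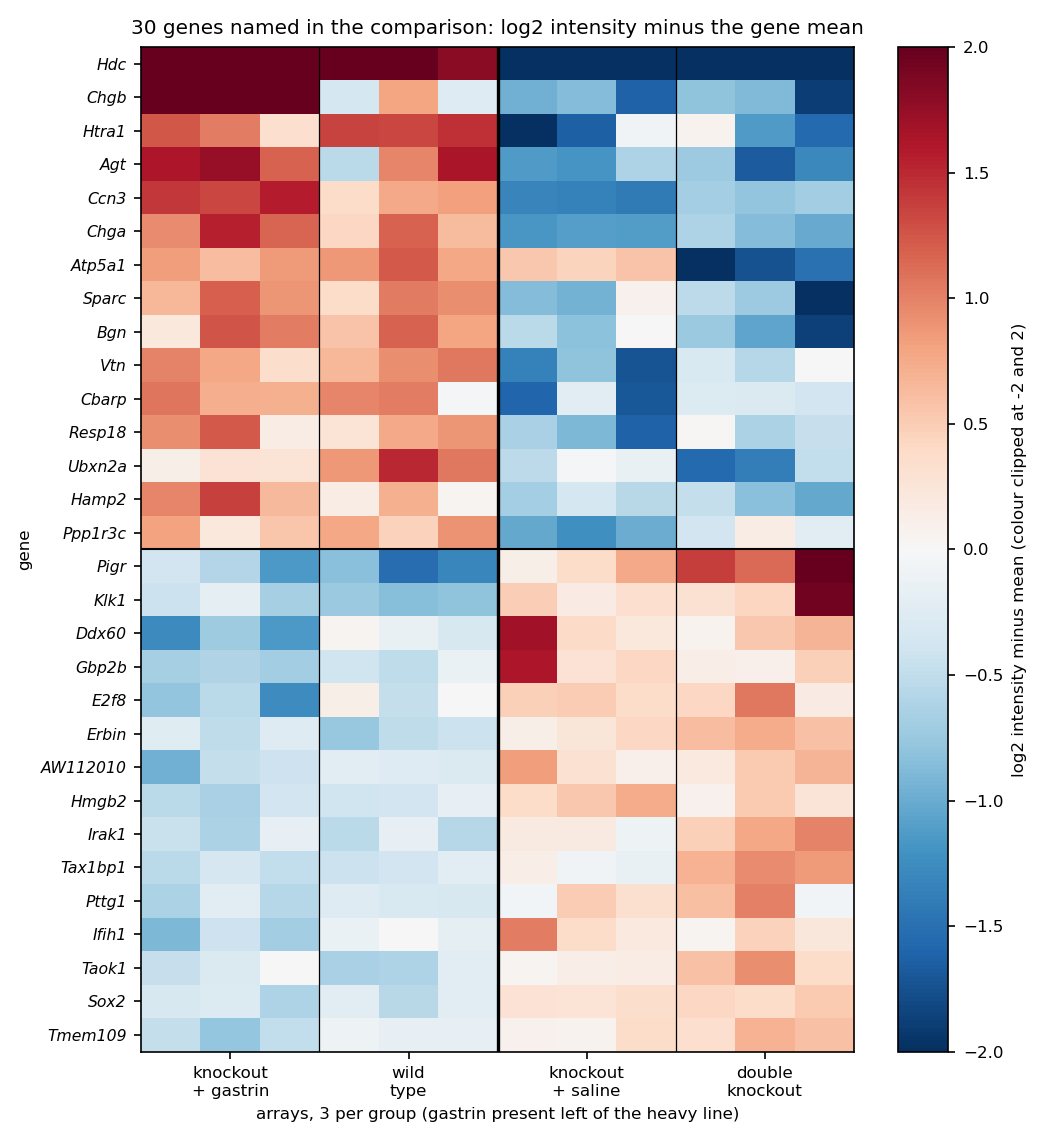
Log2 intensity minus the gene's mean over 12 arrays (colour) for the 15 largest rises (top) and the 15 largest falls (bottom) in gastrin presence, with gastrin-present arrays left of the heavy line. By the rule of naming the sides do not overlap in any gene. Chgb is strongest in the gastrin-infused group, and Atp5a1 is low only on the double knockout arrays.

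Genes reported to respond to gastrin in other work moved both ways. Of 27 measured, 1 rose (Mmp9, a matrix protease, 0.44 ± 0.10) and 3 fell (Reg1, a regenerating protein, -0.62 ± 0.15, Tgfa, a ligand of the EGF receptor, -0.56 ± 0.12, and Cldn18, the stomach claudin, -0.39 ± 0.08, or -0.49 after quantile normalization), with a median of -0.01. Over the brightest probe set of each gene, 362 of 12393 rose and 241 fell. Leaving out 1 array ended the call of Mmp9 in 11, Reg1 in 11, Tgfa in 8 and Cldn18 in 9 of 12 cases. Of 11 EGF receptor genes 2 fell, Tgfa and the ligand Btc. Of 13 hedgehog pathway genes 0 passed, with Shh, the ligand made by parietal cells, at -0.19 (adjusted p = 0.575).

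**Figure D5:**
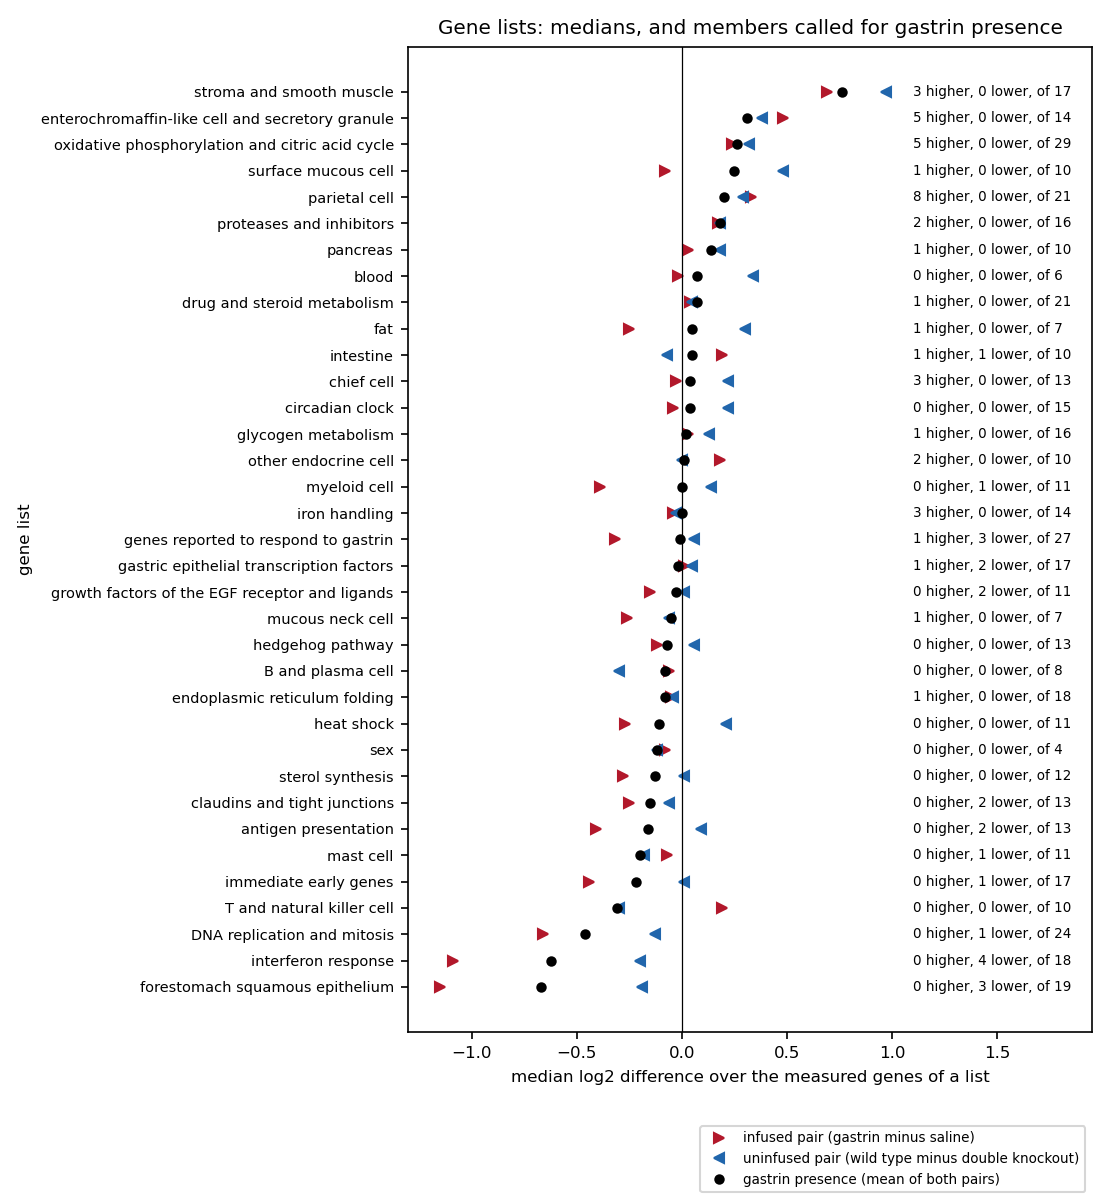
Median log2 difference (x axis) over the measured genes of each of 35 lists, for the infused pair, the uninfused pair and gastrin presence, with the number of members called higher and lower for gastrin presence at the right. Stroma and granule genes have the highest medians (0.76 and 0.31), and interferon and forestomach genes the lowest (-0.62 and -0.67).

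The effect of gastrin presence differed between the pairs in 181 probe sets (0.800% of all), 95 higher (0.420%) and 86 lower (0.380%) in the infused pair. With array medians centred, 41.8% of the calls were higher, against 52.5% here. Of the 16 genes named here 11 have further probe sets, and 1 of the 11, Cyp2b10, had a further call in that direction. Cyp2b10, a drug-metabolizing cytochrome P450, read 1744, 1287 and 1816 on gastrin-infused against 778, 491 and 372 on saline-infused arrays, and 253, 231 and 233 on wild-type against 485, 415 and 433 on double knockout arrays. The sign thus differed, at 1.61 ± 0.24 in the infused and -0.89 ± 0.24 in the uninfused pair. Lgals3, a galectin, read 3453, 2859 and 2500 on gastrin-infused against 8098, 10309 and 8336 on saline-infused arrays, and 4307, 3464 and 3995 on wild-type against 2652, 4771 and 2660 on double knockout arrays. It fell in the infused pair (-1.61 ± 0.23, adjusted p = 0.024) and did not pass in the uninfused pair (0.27 ± 0.23, adjusted p = 0.575).

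Several of these differences lay in the double knockout arrays alone. Myh9, a nonmuscle myosin heavy chain, read 7632, 7505 and 6988 on gastrin-infused, 10008, 9779 and 10765 on wild-type, 8544, 9338 and 8372 on saline-infused and 2496, 2827 and 2269 on double knockout arrays. Its pair difference was -2.26 ± 0.13 (limma adjusted p = 0.000185), but its 3 other probe sets gave -0.48 to 1.12 and none passed. Acsf2, an acyl-CoA synthetase with 1 probe set, read 1351, 1338 and 1485 on gastrin-infused, 1655, 1239 and 1264 on wild-type, 1157, 1162 and 1446 on saline-infused and 228, 294 and 326 on double knockout arrays. Mapre2, a microtubule end-binding protein, read 225 to 380 on 9 arrays and 1169, 2037 and 1664 on the double knockout arrays, and its 3 other probe sets had the opposite sign in the pair difference.

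Infusion with gastrin balanced, the contrast that gastrin presence leaves aside, called 728 probe sets (3.22% of all), 289 higher (1.28%) and 439 lower (1.94%) in infused mice. Of the 1037 gastrin presence calls, 157 (15.1%) were among them. Ndrg4 read 2111, 3113 and 2664 on gastrin-infused and 1456, 1237 and 980 on saline-infused arrays, against 652, 997 and 626 on wild-type and 528, 541 and 545 on double knockout arrays. Saline-infused array 3, at 980, lay just under wild-type array 2, at 997, and the other infused arrays lay above all uninfused ones (1.49, limma adjusted p = 0.00382). Hbb-b2, a haemoglobin chain, was higher in infused mice by 2.08 (adjusted p = 0.00177) and Cdkn1a, a cell cycle inhibitor, lower by 1.17 on the log2 scale (-1.17, adjusted p = 0.0159). Infusion and genotype cannot be told apart here, since both infused groups are gastrin knockouts.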

How the data were processed

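Biotin-labelled RNA of fundic mucosal scrapings was read on one-colour arrays, 1 per sample and 3 per group, per the labels. The values deposited are linear intensity values in whole numbers, of which 5.52% to 6.43% per array were below 0. How the authors scaled and summarised these intensities is not given in the sources used here. Array medians were 403 to 421, no 2 arrays were identical, and arrays of a group correlated at 0.955 to 0.973. The number of arrays limits the precision.

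Of 22690 probe sets, 64 controls were left out. Of 22626 tested, 20380 had 1 symbol, 691 several and 1555 none, and 20351 matched RefSeq's gene table (GRCm38.p6), which changed 0 symbols. Values under 16 were raised to 16 and log2 taken, with no further scaling. A model with 1 mean per group was fitted with limma 3.58.1 in R 4.3.3 (8 residual and 1.10 prior degrees of freedom), and 5 contrasts were adjusted by Benjamini-Hochberg over all probe sets. Group differences are with gastrin minus without. The noise of an array is its lowest percentile (1) with the sign turned (group means 75.3 to 90.9), and bounds use the higher of noise and value. Figures used Python 3.11.15 and matplotlib 3.10.9. The procedure was tested on simulated data.

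Named genes passed gastrin presence, had 1 symbol, a mean on the brighter side at or above 417 (the median over probe sets) and sides that did not overlap: the 15 largest rises and 15 largest falls, 1 probe set per gene. The 8 largest of each sign were taken in the pair difference and infusion contrasts and the 10 with the largest smaller change among those called in both pairs. Gast, Cck and members of 35 lists (542 genes, brightest probe set per gene) could be named whatever their result. The members and lists were chosen with earlier results of these data known. Alternatives were quantile normalization, median centring, floors of 1 and 64, a filter, other models and left-out arrays. Shared replicate numbers did not pair the samples: the deviations of 18 same-numbered pairs correlated at -0.12 to 0.20.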

Additional observations from a re-analysis of the deposited data

Results flagged for a closer look

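In 23 named or listed genes the effect of gastrin presence in the infused pair differed from that in the uninfused pair, by limma's test of the difference itself. Of these, 16 are genes that the naming rule took because they passed this test, so the count of 23 is no result. Over all 22626 probe sets 181 (0.800%) passed. The values are the infused minus the uninfused log2 difference. No group is large enough to test for a single array far from the others.

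Those higher in the infused pair were Cyp2b10 (2.51), Zfhx3 (2.18), Mapre2 (2.17), Snrpd3 (2.15), Id4 (1.69), Luc7l2 (1.59), Tfb2m (1.52), Hdc (1.52), Ccn3 (1.43) and Nfib (1.19). In Zfhx3, Mapre2, Id4, Luc7l2, Tfb2m and Nfib the 3 double knockout arrays were above the other 9. For Hdc both gastrin-absent groups were at the floor, so its value is no measured difference of the pairs, and its second probe set gave 0.68 (adjusted p = 0.849). For Gast 3 of the 4 groups were within the noise, so the size of its value below is set by the floor. Those lower were Gast (-5.79), Ywhaz (-2.83), Hspa1b (-2.36), Myh9 (-2.26), Acsf2 (-2.14), Sprr1a (-1.91), Lgals3 (-1.88), Cxcl16 (-1.87), S100a14 (-1.41), Ppargc1a (-1.37), Muc5ac (-0.80), Gsta4 (-0.72) and Pgc (-0.63). Pgc, Muc5ac and Gsta4 are among the bright genes. After quantile normalization Pgc gave 0.03 in the infused and 0.14 in the uninfused pair, Muc5ac -0.11 and 0.21, and Gsta4 -0.23 and -0.03. Ppargc1a, a coactivator of mitochondrial genes, read 330, 350 and 460 on gastrin-infused against 480, 497 and 392 on saline-infused arrays, and 840, 1142 and 889 on wild-type against 450, 398 and 489 on double knockout arrays. Hspa1b, a heat shock protein, read 281, 208 and 246 on gastrin-infused against 765, 666 and 1143 on saline-infused arrays, and 342, 803 and 449 on wild-type against 316, 343 and 344 on double knockout arrays.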

How the results depend on the processing

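Gastrin presence called 1037 probe sets. The count was 289 with 2 groups of 6 arrays, 491 with infusion as an additive term, 634 with the Gapdh ratio as a covariate and, in alternatives chosen after seeing the data, 191 without wild-type arrays 1 and 2 and 445 without the double knockout arrays. Leaving out 1 array gave 482 to 772. The infused pair (282) gave 593 under quantile normalization, 705 with only brighter probe sets, 152 with the Gapdh covariate, 732 with an intensity trend and robust moderation, 20 from its own 6 arrays, 116 without wild-type arrays 1 and 2, and 67 to 264 with 1 array left out. The uninfused pair (936) gave 607 with the Gapdh covariate, 43 from its own arrays, 76 without wild-type arrays 1 and 2, 561 without probe sets at the floor on all arrays, and 323 to 706 with 1 left out. The pair difference (181) gave 340 under quantile normalization, 55 with centred medians, 520 with brighter probe sets, 118 and 317 with floors of 1 and 64, 539 with the trend, 42 without wild-type arrays 1 and 2, 39 without floor probe sets, and 31 to 197 with 1 left out. Infusion (728) gave 408 with centred medians, 1096 with brighter probe sets, 156 as an additive term, 227 with the covariate, 211 without wild-type arrays 1 and 2, 345 without floor probe sets, and 261 to 663 with 1 left out. The causes were not tested.

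With the replicate number as a block, gastrin presence called 837 probe sets, the infused pair 140, the uninfused pair 703, the pair difference 45 and infusion 416. The numbers do not pair the samples, 5 of 12 arrays correlating best with their own number. Quantile normalization reversed Chia1 (-0.01) and Gkn1 (-0.03), and a floor of 64 reversed Cck (0.04). Of the 30 named rises and falls, none reversed under any alternative, 18 lost the call without wild-type arrays 1 and 2, 15 without the double knockout arrays and 0 under quantile normalization. With 2 groups of 6 arrays 12 of the 30 lost the call, and with infusion as an additive term 7 did. Of 419 bright called genes with several probe sets, 75 had another called the same way and 137 another of opposite sign. Dim genes allow only bounds.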

Other observations

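Other gene groups moved in single members. Sult1a1, a sulfotransferase, read 1757, 2933 and 1411 on gastrin-infused and 562, 651 and 769 on wild-type arrays, against 647, 567 and 591 on saline-infused and 439, 501 and 555 on double knockout arrays, so the gastrin-infused arrays were high and the other 3 groups close together (1.05 ± 0.17, limma adjusted p = 0.0155). Tfrc, the transferrin receptor, read 7905, 9853 and 6615 on gastrin-infused and 5238, 4759 and 4330 on wild-type arrays, against 3485, 3049 and 2471 on saline-infused and 4710, 6067 and 3496 on double knockout arrays, so the double knockout arrays overlapped the wild-type ones. Apoa1, an apolipoprotein, rose by 0.59 ± 0.11 (adjusted p = 0.0235), with 3 further probe sets called the same way, and by 0.45 after quantile normalization. Ckb, the brain-type creatine kinase, was higher by 1.13 ± 0.12 (adjusted p = 0.00428). It lies outside the lists and the naming rule and was chosen after its values were seen.

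Ehf, an epithelial transcription factor, read 559, 549 and 561 on gastrin-infused and 528, 487 and 504 on wild-type arrays, against 1066, 787 and 1050 on saline-infused and 677, 689 and 856 on double knockout arrays, and the sides did not overlap. Among 10 T and natural killer, 8 B and plasma, 6 blood, 12 sterol synthesis, 11 heat shock, 15 circadian clock and 4 sex-linked genes, 0 passed in gastrin presence by limma. At the same threshold 1037 of 22626 probe sets (4.58%) passed, and at that share a list of 4 to 15 genes can hold 0 calls.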
